A study of Homo sapiens and Mus musculus with 15 samples.

Results

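The comparison described here is that of ARPE-19 cells overexpressing YAP-HA with ARPE-19 cells carrying a control vector, both kept for 5 days on a soft gel of 1.5 kPa. ARPE-19 is an established human line derived from retinal pigment epithelium (RPE), and YAP-HA is the transcriptional coactivator YAP carrying an HA epitope tag. There were 3 YAP-HA libraries and 3 control libraries, 6 of the 15 samples of the series, and the values were TPM, transcript levels already divided by transcript length and relative to the whole library. A gene entered the comparison when its TPM was at least 1 in at least 3 of the 6 libraries, which held for 14051 of the 61071 genes in the table. The series also holds 3 libraries of control-vector ARPE-19 cells on plastic, which entered the fit for the estimate of spread and are quoted below only as values, and mouse RPE samples that were not used. No drug or other treatment is named for the ARPE-19 groups. The gel of the YAP-HA cells is given by the description of the series and not by the labels of their libraries. Whether the YAP-HA cells were a clone or a pool, which promoter drove YAP-HA, and whether its coding sequence carried a mutation are not given in the sources used here, so the properties of the line and those of YAP-HA cannot be told apart. The 3 libraries of a group are not said to come from separate cultures, and the p-values then measure the spread between these libraries only.

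YAP and its paralog TAZ (gene WWTR1) are the effectors of the Hippo pathway. When the kinases LATS1 and LATS2 phosphorylate them they are kept in the cytoplasm, and on stiff substrates or in spread cells they enter the nucleus and bind the TEAD transcription factors, which recognise a GGAATG-type sequence. Soft substrates are known to lower nuclear YAP. Type I interferons act on a separate path: cytosolic sensors of nucleic acids induce interferon beta, its receptor IFNAR1 and IFNAR2 signals through JAK1 to a complex that holds STAT2 and IRF9, and this complex binds interferon-stimulated response elements in front of many antiviral genes. In RPE, interferon-stimulated genes, complement and cytokines are studied for their place in ageing and macular degeneration.

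The 6 libraries separated by group. Across the genes tested, Pearson correlations of log2(TPM + 1) lay between 0.988 and 0.992 among YAP-HA libraries, between 0.984 and 0.991 among control libraries, and between 0.936 and 0.958 between the groups. A TPM of at least 1 was reached by 13708 to 13892 genes in YAP-HA libraries and by 13859 to 14128 in control libraries. Genes of the mitochondrial chromosome took 20.2%, 18.6% and 19.4% of the TPM in YAP-HA libraries, against 15.1%, 12.7% and 13.0% in control libraries. TPM keep no sequencing depth, so the depth of the libraries is unknown, and fewer transcripts per cell cannot be told apart from fewer cells carrying them.

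YAP1, on chr11:102110461-102233423 (GRCh38), had 2469, 2209 and 2424 TPM in YAP-HA libraries, against 77.3, 55.9 and 64.8 TPM in control libraries. The groups were far apart, by 35.9-fold in mean TPM, and the libraries matched their labels. The log2 difference, which throughout is YAP-HA minus control on log2(TPM + 1), was 5.15 ± 0.10 (SE, limma adjusted p = 1.6e-10). Reads from the transgene and from the endogenous gene cannot be told apart in these values, and YAP1 had 115, 126 and 119 TPM in control cells on plastic.

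Of the 14051 genes, 7061 were called at a Benjamini-Hochberg adjusted p under 0.05 (50.3%), of which 3572 were higher (25.4% of the genes tested) and 3489 lower (24.8%) in YAP-HA cells. Most of these differences were small, with a median size of 0.53 on the log2 scale among the genes called. With TPM rescaled after leaving out the mitochondrial genes, whose share differed between the groups, 4493 genes were higher and 2820 lower. Large differences were mostly decreases. A log2 difference of at least 1 was reached by 345 genes that rose (2.46%) and 601 that fell (4.28%), one of at least 2 by 13 that rose and 139 that fell, and one of at least 4 by 4 that rose and 18 that fell. In 8137 of the 14051 genes, more than were called, the YAP-HA and control libraries did not overlap in TPM. Lack of overlap, given below for single genes, was therefore a trait of most genes tested. At the low end, 629 tested genes reached a TPM of 1 in exactly 3 of the 6 libraries, and 522 genes reached it in 2 and were left out.

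**Figure D1:**
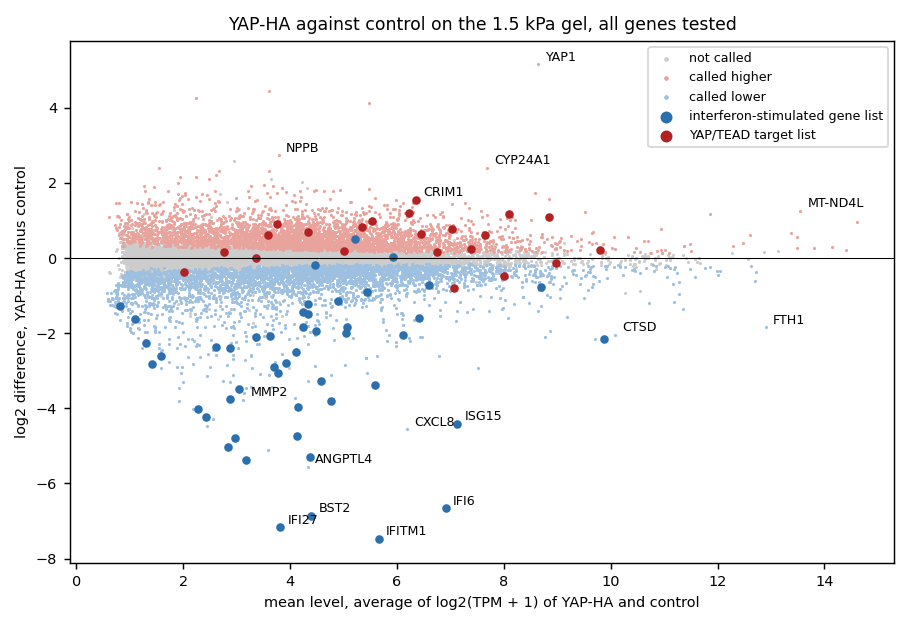
Each point is 1 of the 14051 genes tested, with the average of log2(TPM + 1) of both groups' mean levels on the horizontal axis and the log2 difference, YAP-HA minus control, on the vertical axis. Pale points are genes called higher, genes called lower and genes not called, and larger points are the interferon-stimulated and YAP/TEAD target lists. YAP1 stands at 5.15, and the decreases reach to -7.47 for IFITM1.

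The largest decreases were interferon-stimulated genes. Of 48 tested members of a list of such genes, 45 fell (93.8%, beside 24.8% of all genes tested) and 1 rose in YAP-HA cells, with a median log2 difference of -2.45, beside a median of 0.00 over all genes tested. IFITM1, which blocks entry of viruses at membranes, had 3.52, 1.96 and 2.90 TPM in YAP-HA libraries, against 755, 632 and 612 TPM in control libraries. It had the lowest log2 difference of all genes tested, -7.47 ± 0.17 (adjusted p = 5.3e-10), and its mean TPM was 239-fold lower in YAP-HA cells. BST2 (chr19:17402939-17405648), the membrane protein tetherin that holds budding virus at the cell surface, had 0.85, 1.15 and 0.86 TPM in YAP-HA libraries and 208, 232 and 235 TPM in control libraries. IFI6, a small protein of mitochondria and the endoplasmic reticulum, had 9.57, 11.6 and 11.8 TPM in YAP-HA libraries, against 1129, 1281 and 1231 TPM in control libraries. Lack of overlap between the groups was a condition for naming these genes among the largest decreases. The log2 differences of BST2 and IFI6 were -6.86 ± 0.09 and -6.67 ± 0.08 (adjusted p = 8.1e-12 for each).

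The decrease ran through the classes of antiviral effectors. IFI27, a relative of IFI6, had 0.08, 0.37 and 0.08 TPM in YAP-HA libraries, which is near the lower end of what the table lists, and 151, 174 and 178 TPM in control libraries. OAS1, which makes the 2-5A messenger that activates RNase L, had 0.37, 0.48 and 0.31 TPM in YAP-HA libraries and 55.7, 55.4 and 59.9 TPM in control libraries (log2 difference -5.39 ± 0.08). MX1, a dynamin-like GTPase that traps viral nucleoproteins, had 2.17, 2.04 and 2.68 TPM in YAP-HA libraries and 139, 123 and 125 TPM in control libraries (-5.31 ± 0.09). ISG15, a ubiquitin-like modifier, kept a clear level in YAP-HA cells, with 27.6, 32.0 and 28.3 TPM against 582, 694 and 651 TPM in control cells (-4.41 ± 0.08). IFI44L, RSAD2 (viperin) and IFIT1, which binds RNA lacking a host cap, differed by -5.03, -4.80 and -3.81. XAF1 was listed at 0 in the 3 YAP-HA libraries and had 7.36, 5.07 and 5.80 TPM in control libraries. The exceptions were TRIM25, the E3 ligase of RIG-I, which rose by 0.50 (adjusted p = 0.0072), and IFIT5 and PARP12, which were not called at -0.19 and 0.04.

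Summed over the list, interferon-stimulated genes had 1260 to 1314 TPM in YAP-HA libraries and 7376 to 7547 TPM in control libraries on the gel. Control cells on plastic had 2914 to 3122 TPM. For the leading genes the plastic libraries lay between the gel groups, with 150 to 218 TPM for IFITM1 and 29.6 to 32.5 TPM for BST2. The counts of 45 lower and 1 higher were the same under both other scalings and without any one of the 6 libraries.

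**Figure D2:**
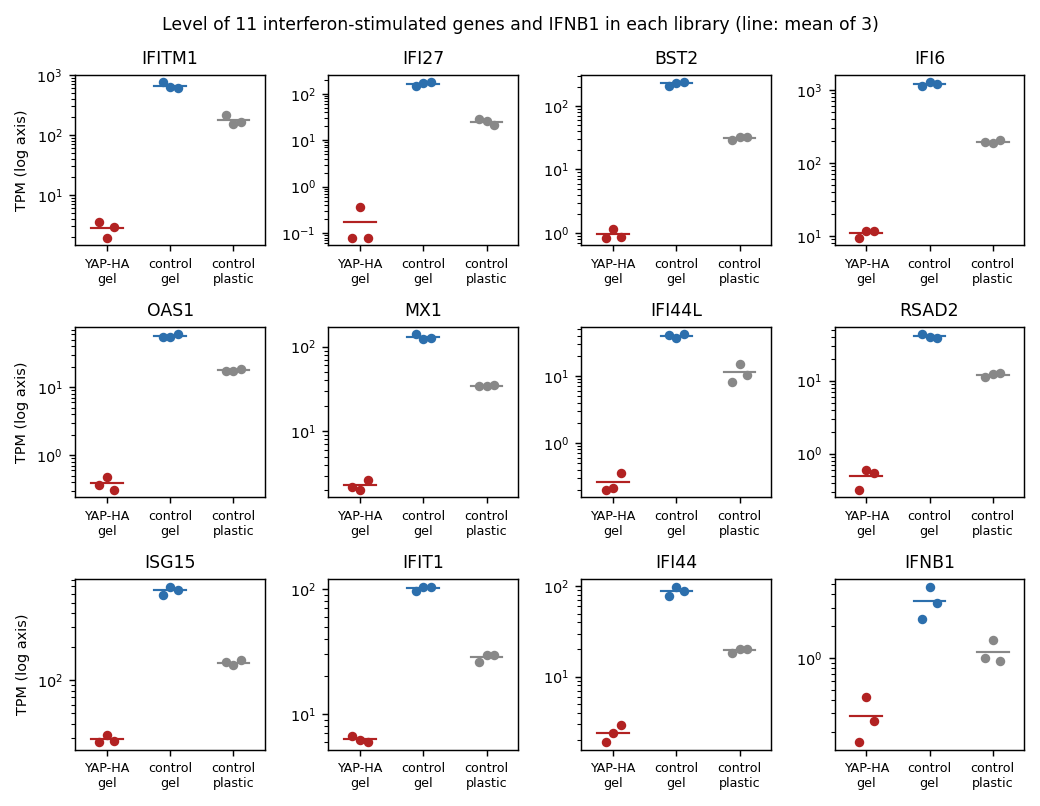
TPM on a log axis of 11 interferon-stimulated genes and IFNB1, with 1 point per library and a line at the mean of each group (YAP-HA on the gel, control on the gel, control on plastic, from left to right). IFITM1 stands at 1.96 to 3.52 TPM in YAP-HA cells and at 612 to 755 TPM in control cells on the gel. In no gene drawn do these groups overlap, though lack of overlap was a condition for naming most of them.

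Promoters of 4 interferon-stimulated genes with large decreases are shown because they hold the same letters, and they were chosen for that. Each is the RefSeq window of 300 bases around an annotated start (GRCh38.p14), read in the direction of the gene, and capitals mark matches to a response-element-type pattern, GAAA, then any 2 bases, then GAAA, searched on both strands, where overlapping matches run together. IFITM1 is at chr11:313790-314089 (plus strand), BST2 at chr19:17405581-17405880 (minus strand), IFI6 at chr1:27672143-27672442 (minus strand) and ISG15 at chr1:1013247-1013546 (plus strand). IFI6 holds 3 matches and each of the others 2. The RefSeq windows of other genes that fell at least as far as ISG15 differed, since OAS1, ANGPTL4, CD74 and CXCL8 held no match, while IFI27, IFI44L and IFI44 did.
IFITM1: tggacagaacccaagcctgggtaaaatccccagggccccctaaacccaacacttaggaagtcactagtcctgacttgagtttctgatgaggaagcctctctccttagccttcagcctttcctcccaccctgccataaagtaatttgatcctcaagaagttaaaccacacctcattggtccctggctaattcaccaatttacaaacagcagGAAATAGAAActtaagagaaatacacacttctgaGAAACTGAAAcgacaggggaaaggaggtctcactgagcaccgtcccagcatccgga
BST2: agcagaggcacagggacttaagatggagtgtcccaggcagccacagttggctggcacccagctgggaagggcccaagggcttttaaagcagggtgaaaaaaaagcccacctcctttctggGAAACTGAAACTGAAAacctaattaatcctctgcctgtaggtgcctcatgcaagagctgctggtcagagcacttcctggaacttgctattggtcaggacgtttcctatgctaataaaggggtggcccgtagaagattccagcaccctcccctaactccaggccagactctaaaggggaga
IFI6: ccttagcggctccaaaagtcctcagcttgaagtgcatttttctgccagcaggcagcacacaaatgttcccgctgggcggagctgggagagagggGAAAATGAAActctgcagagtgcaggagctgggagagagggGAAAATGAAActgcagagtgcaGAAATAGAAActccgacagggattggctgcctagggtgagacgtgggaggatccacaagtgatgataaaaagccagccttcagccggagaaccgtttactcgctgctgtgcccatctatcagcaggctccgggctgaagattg
ISG15: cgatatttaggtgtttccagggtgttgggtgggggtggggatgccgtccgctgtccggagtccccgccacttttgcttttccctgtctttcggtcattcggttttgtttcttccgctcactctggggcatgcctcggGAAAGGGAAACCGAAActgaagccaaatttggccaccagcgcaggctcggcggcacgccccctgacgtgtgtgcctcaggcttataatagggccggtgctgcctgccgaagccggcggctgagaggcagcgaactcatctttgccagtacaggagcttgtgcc
The pattern was found in 424 of 14798 promoters of tested genes (2.87%). It was in 29 of 49 promoters of the interferon-stimulated list (59.2%), where 37 of the 48 genes matched the RefSeq table, and in 17 of 36 promoters of genes that fell by at least 3 on the log2 scale (47.2%). These sets share genes, and overlapping windows of 1 gene were each counted. By gene the pattern was in 393 of 10118 tested genes matched, in 25 of 37 of the list and in 13 of 25 that fell by at least 3. Among genes that fell by 1 to 3 it was in 7.44% of promoters, among those that rose by at least 1 in 3.56%, and among genes not called in 2.80%. The list and the pattern both come from textbook knowledge of the interferon response, and a match describes letters, not binding.

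Many genes of the steps that lead to interferon and receive it were also lower. The list of these genes was drawn up after values had been seen. Of its 26 tested members 17 fell (65.4%) and 2 rose (7.7%, median -0.44), beside 24.8% and 25.4% of all genes tested. IFNB1, which encodes interferon beta, had 0.16, 0.43 and 0.25 TPM in YAP-HA libraries and 2.36, 4.74 and 3.29 TPM in control libraries, so the groups were apart at a low level (log2 difference -1.77 ± 0.20, adjusted p = 5.1e-05). IFNE, interferon epsilon, had 3.47, 2.67 and 3.07 TPM in YAP-HA libraries and 12.3, 13.2 and 13.8 TPM in control libraries. The cytosolic RNA sensors RIG-I (DDX58) and MDA5 (IFIH1), which are themselves interferon-stimulated, differed by -2.90 and -2.78. The endosomal sensor TLR3 and the DNA-sensing adaptor STING1 differed by -1.57 and -1.22. The receptor chain IFNAR1 was not called (0.10, adjusted p = 0.43), IFNAR2 fell by 0.44, and the kinase JAK1 and the adaptor MAVS were called higher at 0.19 and 0.47. These calls were less stable, since the list held 1 gene called higher with the replicate block, without control replicate 2 or 3 and without YAP-HA replicate 3, and 0 with transcript length smoothed.

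The transcription factors that carry the interferon signal fell too. STAT2 had 32.1, 28.3 and 30.8 TPM in YAP-HA libraries, against 67.4, 50.8 and 57.5 TPM in control libraries, which did not overlap. STAT2 and IRF9 differed by -0.92 and -1.22, and IRF7, which amplifies interferon production, by -2.07. In the paths beside them stood the 17 tested genes of MHC class I presentation. Of these 15 fell (88.2%, beside 24.8% of all genes tested) and none rose (median -1.17). HLA-B had 43.5, 45.2 and 41.1 TPM in YAP-HA libraries and 267, 277 and 269 TPM in control libraries, and the light chain B2M had 239, 235 and 229 TPM against 839, 903 and 992 TPM in control libraries. HLA heavy chains are near-identical in part, and how reads were shared between them is not known. CD74, the invariant chain of MHC class II, had 1.10, 0.73 and 1.34 TPM in YAP-HA libraries and 68.7, 68.9 and 69.8 TPM in control libraries (-5.10 ± 0.12).

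Secreted inflammatory signals fell with few exceptions. Of 22 tested cytokines and chemokines 20 fell (90.9%) and 1 rose (4.5%, median -1.59), beside 24.8% and 25.4% of all genes tested. CXCL8, the neutrophil attractant interleukin-8, had 13.0, 15.5 and 13.7 TPM in YAP-HA libraries and 295, 387 and 382 TPM in control libraries (-4.56 ± 0.10, adjusted p = 5.6e-10). The T cell attractant CCL5 and the growth factor CSF2 differed by -3.46 and -2.89, and IL6 by -2.55. IL18 was the member that rose, with 392, 389 and 389 TPM in YAP-HA libraries and 168, 205 and 205 TPM in control libraries. Among 11 tested complement genes 8 fell (72.7%) and 1 rose (9.1%, median -1.77). The protease C1S was at -3.28, C1R at -3.08 and C3 at -2.67. The inhibitor CD55 rose by 0.64. Among 13 BCL-2 family genes and inhibitors of apoptosis 9 fell (69.2%) and 1 rose (7.7%). BIRC3, an NF-kB target, was at -2.60, BMF at -1.98, BIRC2 at -1.17 and BCL2, the member that rose, at 0.56. The call of BCL2 was lost with transcript length smoothed (0.29, adjusted p = 0.13).

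Genes known as YAP/TEAD targets were higher on balance, by far less than YAP1 itself. Of 22 tested targets 15 rose (68.2%, beside 25.4% of all genes tested) and 3 fell, with a median log2 difference of 0.62. CRIM1, a membrane protein that binds BMPs, had 132, 135 and 151 TPM in YAP-HA libraries, against 57.5, 38.6 and 45.1 TPM in control libraries (1.56 ± 0.12, adjusted p = 4.6e-06). AMOTL2, an angiomotin that restrains YAP, had 106, 114 and 117 TPM in YAP-HA libraries and 54.5, 43.8 and 46.5 TPM in control libraries (1.21 ± 0.09). The receptor kinase AXL had 423, 392 and 413 TPM in YAP-HA libraries and 201, 171 and 167 TPM in control libraries, and F3, tissue factor, had 682, 674 and 668 TPM against 312, 304 and 324 TPM in control libraries. None of these genes had overlapping groups. DOCK5, LATS2, ASAP1, PTPN14, MYOF, RBMS3, IGFBP3 and TGFB2 rose by 0.98, 0.90, 0.83, 0.71, 0.64, 0.63, 0.62 and 0.79.

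The targets most used as YAP reporters moved little or the other way. CCN2 (CTGF), a matricellular protein, had 173, 197 and 171 TPM in YAP-HA libraries, against 147, 156 and 151 TPM in control libraries on the gel and 456, 476 and 471 TPM in control cells on plastic. CCN1 (CYR61), its relative, had 941, 993 and 953 TPM in YAP-HA libraries and 842, 833 and 816 TPM in control libraries. Both groups were apart in either gene, but the differences were 0.25 ± 0.06 (adjusted p = 0.0077) and 0.21 ± 0.05 (adjusted p = 0.0037), and CCN2 lost its call when each library was centred on its median (0.21, adjusted p = 0.050). ANKRD1, a nuclear ankyrin-repeat protein, fell, with 98.1, 98.7 and 106 TPM in YAP-HA libraries and 168, 174 and 183 TPM in control libraries (-0.79 ± 0.07, adjusted p = 1.5e-05). The ectonucleotidase NT5E and the exchange factor ARHGEF17 fell by 0.47 and 0.37, and ARHGEF17 lost its call with the replicate block (adjusted p = 0.056), without control replicate 3 (0.062) and without YAP-HA replicate 1 (0.053). GADD45A rose by 0.16, a call lost in 12 other settings, and FJX1, NUAK2, FOXF2 and CCDC80 were not called at 0.19, 0.17, 0.00 and -0.14.

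Promoters of 3 targets are shown because the same TEAD-type letters stand in front of a gene that rose, a gene that differed little and a gene that fell. Capitals mark GGAATG on either strand. AMOTL2 is at chr3:134374398-134374697 (minus strand), for the downstream of its RefSeq starts, and holds 1 match, while the window at its other start held none. CCN2 is at chr6:131951323-131951622 (minus strand) with 3 matches and ANKRD1 at chr10:90921038-90921337 (minus strand) with 2.
AMOTL2: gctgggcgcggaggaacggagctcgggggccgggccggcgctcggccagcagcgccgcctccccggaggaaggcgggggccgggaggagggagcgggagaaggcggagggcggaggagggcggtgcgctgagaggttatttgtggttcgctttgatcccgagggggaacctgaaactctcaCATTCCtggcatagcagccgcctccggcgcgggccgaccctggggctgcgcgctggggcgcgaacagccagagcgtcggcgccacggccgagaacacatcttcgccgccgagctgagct
CCN2: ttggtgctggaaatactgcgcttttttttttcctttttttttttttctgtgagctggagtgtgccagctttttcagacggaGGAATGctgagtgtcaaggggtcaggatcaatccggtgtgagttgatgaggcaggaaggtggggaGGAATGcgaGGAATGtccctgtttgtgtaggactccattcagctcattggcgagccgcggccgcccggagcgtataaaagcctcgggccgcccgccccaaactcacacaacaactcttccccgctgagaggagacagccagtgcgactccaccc
ANKRD1: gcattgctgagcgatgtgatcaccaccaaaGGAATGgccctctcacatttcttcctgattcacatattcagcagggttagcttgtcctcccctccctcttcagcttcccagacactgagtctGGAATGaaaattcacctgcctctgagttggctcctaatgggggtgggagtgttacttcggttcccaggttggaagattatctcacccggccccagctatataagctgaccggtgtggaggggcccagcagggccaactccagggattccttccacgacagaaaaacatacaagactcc
GGAATG was in 1685 of the 14798 promoters (11.4%), in 9 of 18 promoters of the target list (50.0%), where 16 of 22 genes matched, and in 64 of 393 promoters of genes that rose by at least 1 (16.3%). Among genes that fell by at least 3 it was in 4 of 36 (11.1%). Targets that rose differed, since F3, IGFBP3, MYOF and RBMS3 held no match, while LATS2, PTPN14 and TGFB2 held 1 each. AXL held a match at 1 of its starts and none at the other. Here too a match describes letters, not binding.

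Of 9 tested genes of YAP, TAZ, TEADs and VGLL cofactors 5 rose (55.6%, beside 25.4% of all genes tested), YAP1 among them. The 2 that fell (22.2%) were near the 24.8% over all genes tested, and the median was 0.53. TEAD1, the most abundant TEAD in these cells by TPM, had 95.5, 96.4 and 125 TPM in YAP-HA libraries, against 50.4, 31.7 and 38.4 TPM in control libraries (1.39 ± 0.17, adjusted p = 9.8e-05). TEAD3 and TEAD4 rose by 0.81 and 0.53, and TEAD2 was not called at -0.16. TAZ (WWTR1) had 26.2, 25.9 and 33.2 TPM in YAP-HA libraries and 36.6, 25.7 and 27.9 TPM in control libraries, which overlapped (-0.07, adjusted p = 0.68). The TEAD cofactor VGLL3 rose by 1.75, while VGLL4, which competes with YAP for TEADs, fell by 0.41 and VGLL2 by 0.43, a call that VGLL2 lost in 7 other settings. Of 25 Hippo kinases and adaptors 19 rose (76%) and 2 fell (8%, median 0.49), beside 25.4% and 24.8% of all genes tested. The LATS-activating scaffold WWC2 was at 1.23, the LATS inhibitor LIMD1 at 0.98, WWC1 at 0.91 and merlin (NF2) at 0.76. The kinases STK38L and STK38 were the members that fell, by 0.64 and 0.27.

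**Figure D3:**
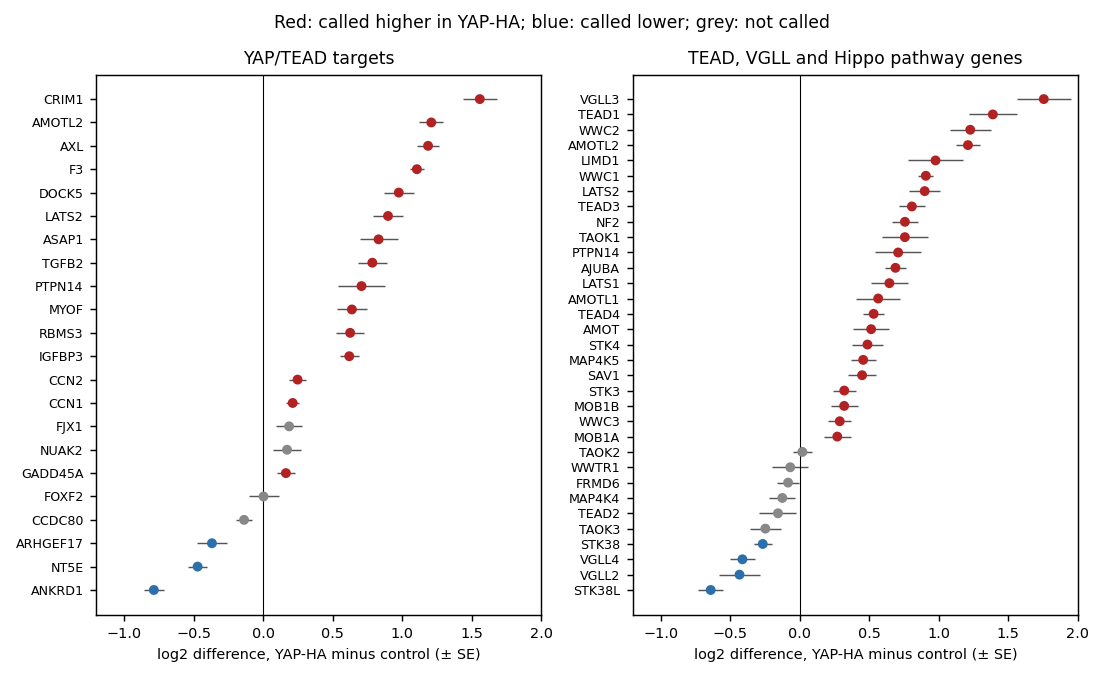
Log2 differences, YAP-HA minus control, with their SE, of the YAP/TEAD targets on the left and of TEAD, VGLL and Hippo pathway genes without YAP1 on the right. Red points were called higher, blue points lower and grey points were not called, and the targets run from -0.79 for ANKRD1 to 1.56 for CRIM1.

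Transcript length moved with these results and with the calls over all genes. By the longest annotated transcript, known for 13888 genes, 11.9% of genes under 1000 bases were higher and 27.3% lower, whereas 50.8% of genes of at least 8000 bases were higher and 10.1% lower. The median log2 difference was -0.16 in the shortest class and 0.33 in the longest. The longest class deviated from its gene means by 0.12, 0.11 and 0.28 in YAP-HA libraries and by -0.003, -0.31 and -0.20 in control libraries, so control replicate 1 lay nearer to the YAP-HA libraries than the other controls did. With each library's trend on length removed, 16 of the YAP/TEAD targets were higher and 4 lower (median 0.36), and 15 Hippo genes were higher and 5 lower (median 0.28). The part of length or of RNA quality in these results was not tested further. In the same setting the interferon-stimulated genes gave 45 that were lower and 1 higher.

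Beyond YAP1, the largest increases among genes with a gene symbol were in genes of several functions. Only genes called whose groups did not overlap in TPM were ranked. NPPB, the precursor of the natriuretic peptide BNP, had 35.2, 33.6 and 34.7 TPM in YAP-HA libraries, against 3.44, 4.63 and 5.05 TPM in control libraries (2.74 ± 0.13, adjusted p = 1.3e-07). CYP24A1, the enzyme that inactivates vitamin D, had 466, 464 and 486 TPM in YAP-HA libraries and 95.3, 83.5 and 86.3 TPM in control libraries (2.41 ± 0.06). The retinol-binding protein gene RBP7 and the long noncoding RNA LINC00707 rose by 2.33 and 2.32, and C4BPB, the beta chain of the complement inhibitor C4BP, by 1.94. The phosphodiesterase PDE1C and the noncoding SFTA1P rose by 1.82 and 1.92. LPAR1, a receptor for lysophosphatidic acid, had 2.56, 2.17 and 2.21 TPM in YAP-HA libraries and 0.37, 0.41 and 0.36 TPM in control libraries. ZBED6 lies within another gene, so its increase of 2.10 may hold reads of that gene. SNORA57, a small nucleolar RNA of only 149 bases, had the largest of these increases, 4.26 ± 0.76. Its level was 8.95, 18.3 and 35.7 TPM in YAP-HA libraries and was listed at 0 in the 3 control libraries. In control cells on plastic it was 0, 0 and 8.34 TPM, so a level near the lowest YAP-HA value also arose within a control group. TGFB2-OT1, which overlaps the end of TGFB2, was listed at 0 in YAP-HA libraries and had 5.49, 39.8 and 39.6 TPM in control libraries, while it was also listed at 0 in control cells on plastic.

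Cell cycle genes rose almost without exception. Of 34 tested genes of mitosis 34 rose (100%, median 0.74), beside 25.4% of all genes tested. Of 33 genes of DNA replication 32 rose (97.0%) and none fell (median 0.60). KIF20A, a kinesin of the cleavage furrow, had 122, 121 and 124 TPM in YAP-HA libraries, against 51.0, 46.6 and 45.0 TPM in control libraries (1.35 ± 0.06, adjusted p = 5.0e-08). MKI67, the gene of the proliferation marker Ki-67, had 94.6, 89.1 and 111 TPM in YAP-HA libraries and 47.1, 40.8 and 38.6 TPM in control libraries, and the groups did not overlap. NUSAP1, ANLN and the topoisomerase TOP2A rose by 1.30, 1.26 and 1.13. In replication the origin factor MCM10, thymidine kinase TK1 and the ribonucleotide reductase subunit RRM2 rose by 1.01, 1.00 and 0.89. CCNE1, the cyclin of the entry to S phase, was not called at -0.12 (adjusted p = 0.39). Summed TPM of the mitosis list were 4354 to 4493 in YAP-HA libraries and 2632 to 2686 in control libraries.

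CDK inhibitors and p53 targets were split, with shares near those over all genes tested. Of 23 tested members 4 rose (17.4%) and 6 fell (26.1%) with a median of -0.02, whose sign turned when TPM were rescaled without mitochondrial genes, and without control replicate 3 the number that rose was 2. CDKN1A, the inhibitor p21, had 198, 205 and 202 TPM in YAP-HA libraries and 322, 292 and 297 TPM in control libraries (-0.59 ± 0.05). The quinone reductase TP53I3 and the BH3-only gene PMAIP1 fell by 1.16 and 0.94, and BBC3, another BH3-only gene, by 0.61.

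The extracellular matrix and the genes around it were lower on balance, while the shares that rose were near the 25.4% over all genes tested. Of 16 tested genes of fibrillar matrix 7 fell (43.8%) and 4 rose (25%, median -0.26), and of 18 of the basement membrane 10 fell (55.6%) and 4 rose (22.2%, median -0.44), beside 24.8% of all genes tested that fell. FN1, fibronectin, had 215, 203 and 211 TPM in YAP-HA libraries, against 939, 920 and 862 TPM in control libraries (-2.11 ± 0.05, adjusted p = 1.0e-09). COL1A1, a chain of type I collagen, and the laminin chain LAMB3 fell by 2.57 and 2.53. ELN, elastin, moved the other way, with 6.05, 7.57 and 5.68 TPM in YAP-HA libraries and 0.97, 0.55 and 1.12 TPM in control libraries (1.99 ± 0.15), and the microfibril gene FBN2 and COL12A1 rose by 1.78 and 1.42. Among 21 integrins and focal adhesion genes 11 fell (52.4%) and 5 rose (23.8%, median -0.28), with -2.06 for the fibronectin receptor chain ITGA5 and 1.78 for ITGB8.

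Matrix proteases and TGF-beta response genes were lower too. Of 20 proteases and inhibitors 10 fell (50%, beside 24.8% of all genes tested) and 5 rose (25%, near the share over all genes tested). Their median was -0.78. MMP2, gelatinase A, had 1.36, 1.48 and 1.23 TPM in YAP-HA libraries and 35.1, 28.1 and 30.5 TPM in control libraries (-3.77 ± 0.09), and the collagenase MMP1 and the membrane-bound MMP14 fell by 2.90 and 1.60. ADAMTS1, which cleaves proteoglycans, had 80.3, 84.2 and 84.1 TPM in YAP-HA libraries and 24.2, 21.4 and 21.6 TPM in control libraries, and TIMP2 rose by 1.17. Of 21 TGF-beta ligands and response genes 14 fell (66.7%) and 6 rose (28.6%, near the share over all genes tested), with a median of -0.98. The matrix protein TGFBI, the receptor regulator PMEPA1, ID1 and the inhibitor SMAD7 fell by 2.15, 2.14, 2.12 and 1.76. The ligand BMP4 and SMAD4 rose by 1.80 and 0.88, and the activin-binding protein FST by 1.91, while the activin chain INHBA fell by 2.07.

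Contractile genes and SRF targets gave 13 that fell (54.2%) and 4 that rose (16.7%) among 24 tested (median -0.22), and without control replicate 1 the number that rose was 7. The tropomyosin TPM1 and the myosin light chain MYL9 fell by 1.06 and 0.89, and the nonmuscle myosin MYH10 rose by 1.26. The level of TPM1 was 487, 501 and 513 TPM in YAP-HA libraries and 1065, 1013 and 1043 TPM in control libraries. Among 22 immediate early genes 9 fell (40.9%) and 5 rose (22.7%, near the 25.4% over all genes tested), with a median of -0.26. JUNB, an AP-1 subunit, was lowest at -2.84, followed by IER3 and IER2 at -1.52 and -1.12, and the orphan receptor NR4A1 was highest at 0.61.

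Lipid genes divided by pathway. ANGPTL4, a secreted inhibitor of lipoprotein lipase and a target of PPARs and hypoxia, had 1.73, 1.78 and 2.28 TPM in YAP-HA libraries, against 130, 141 and 139 TPM in control libraries on the gel and 4.12 to 4.74 TPM in control cells on plastic (-5.56 ± 0.10, adjusted p = 7.8e-11). G0S2, an inhibitor of triglyceride lipase, had 0.16, 0.00 and 0.08 TPM in YAP-HA libraries and 6.18, 7.77 and 7.76 TPM in control libraries, and the lipid droplet protein PLIN2 fell by 1.37. In a list of PPAR targets drawn up after values had been seen, 8 of 15 fell (53.3%) and 3 rose (20%, median -0.38). Over all genes tested 24.8% fell and 25.4% rose. Genes of cholesterol and fatty acid synthesis were higher in 22 of 32 members (68.8%) and lower in 1 (3.1%, median 0.41). DHCR7 rose by 0.90, the desaturase SCD by 0.87 and HMGCS1 by 0.80. PMVK was the member that fell, by 0.42.

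Amino acid genes under ATF4 were higher in 17 of 29 members (58.6%) and lower in 5 (17.2%, median 0.28), beside 25.4% and 24.8% of all genes tested. SLC7A5, the transporter of large neutral amino acids, had 244, 257 and 263 TPM in YAP-HA libraries and 106, 79.5 and 89.0 TPM in control libraries (1.48 ± 0.09). The serine synthesis genes PSAT1 and PHGDH rose by 1.01 and 0.86, whereas CEBPB and the mTORC1 inhibitor DDIT4 fell by 1.25 and 1.15. ATF4 itself was not called at 0.02 (adjusted p = 0.84). Glycolysis and hypoxia genes gave 12 that rose (37.5%) and 8 that fell (25%, near the 24.8% over all genes tested) of 32. Their median of 0.00 changed sign with each library centred on its median and when some libraries were left out. VEGFA fell by 1.10, and the lactate dehydrogenase LDHA and the kinase PDK1 rose by 0.46 and 0.76.

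NRF2 targets, ferritin and lysosomal genes were lower. Of 22 NRF2 targets and peroxide defence genes 15 fell (68.2%) and 1 rose (4.5%, median -0.51), beside 24.8% and 25.4% of all genes tested. HMOX1, haem oxygenase 1, had 14.2, 15.2 and 12.8 TPM in YAP-HA libraries, against 115, 131 and 127 TPM in control libraries (-3.05 ± 0.09, adjusted p = 1.8e-09). FTH1, the ferritin heavy chain, was among the genes with the largest difference in mean TPM, with 4136, 4390 and 3600 TPM in YAP-HA libraries and 14155, 15132 and 14150 TPM in control libraries. FTH1 has processed copies in the genome with which reads may be shared. AKR1C3, NQO1 and the light chain FTL fell by 2.25, 1.56 and 1.16, and the thioredoxin reductase TXNRD1 was the member that rose, by 0.70. Of 25 lysosomal genes 18 fell (72%) and 1 rose (4%, median -0.61). The protease cathepsin D (CTSD) had 526, 551 and 517 TPM in YAP-HA libraries and 2197, 2247 and 2113 TPM in control libraries, CTSS and CTSK fell by 2.39 and 1.61, and TFEB, a transcription factor of lysosomal genes, by 1.49. CTSV was the cathepsin that rose, by 0.75.

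Transcripts of the mitochondrial chromosome rose in 11 of 13 genes (84.6%, beside 25.4% of all genes tested) and fell in none (median 0.39). This list was drawn up after values had been seen. MT-ND4L, a subunit of complex I, had 17834, 17117 and 19830 TPM in YAP-HA libraries and 10582, 6378 and 6504 TPM in control libraries (1.26 ± 0.16). MT-ND5 and MT-ATP8 rose by 1.17 and 0.96, and MT-CO2 by 0.22 (adjusted p = 0.042), a call lost in 7 other settings. By position MT-ND4L overlaps MT-ND4 and MT-ATP8 overlaps MT-ATP6, so reads may be shared between them. MT-ND4 and MT-ATP6 rose less, by 0.67 and 0.57. TPM are relative to the whole library, and the counts of genes with these left out are given above.

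RPE identity was weak in both groups and did not move as a whole. The visual cycle isomerase gene RPE65 was listed at 0 in the 6 gel libraries, as were TTR, RGR and CRX, whereas the transcription factors OTX2 and PAX6 and the keratins KRT8 and KRT18 were present. Of 13 tested members 4 rose (30.8%) and 5 fell (38.5%, median 0.17), beside 25.4% and 24.8% of all genes tested. The melanosome protein PMEL had 8.27, 8.74 and 9.38 TPM in YAP-HA libraries and 2.89, 3.04 and 2.43 TPM in control libraries, and MITF, the regulator of pigment cell genes, rose by 1.30. ENPP2 fell by 1.71, the largest difference of the list. STRA6, a retinol transporter, and the channel BEST1 fell by 1.07 and 0.92. Of 16 epithelial and mesenchymal genes 6 rose (37.5%) and 7 fell (43.8%). Their median of 0.12 changed sign without control replicate 2 and with length smoothed. The claudin CLDN4 and SNAI1 fell by 1.97 and 1.89, and FSTL1 rose by 1.72.

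Markers of other cell types were nearly absent. Of 10 endothelial and mural markers 1 was tested, of 10 leukocyte markers 1 and of 10 photoreceptor and neural markers 1, and 2 of 10 fibroblast markers. Leukocyte markers summed to 75.8 to 94.9 TPM in YAP-HA libraries and 132 to 199 TPM in control libraries, nearly all of it from CD68, a lysosomal protein, which fell by 0.84, and 5 of the 10 were at 0 in the 6 libraries. The neural list, 40.8 to 47.4 TPM in YAP-HA libraries and 91.6 to 97.3 TPM in control libraries, came nearly all from the tubulin TUBB3, which fell by 1.10. The tested members of the other lists were RGS5, PDGFRB and COL1A1, at 0.70, 0.77 and -2.57.

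The remaining lists showed no common direction. Of 9 EGF receptor ligands and receptors 4 rose (44.4%) and 3 fell (33.3%), beside 25.4% and 24.8% of all genes tested. Their median of 0.01 changed sign with the scaling and when some libraries were left out. EGFR rose by 1.15, whereas its ligands TGFA and HBEGF fell by 1.02 and 1.01. CCN and IGFBP genes gave 4 that rose (50%) and 2 that fell (25%) of 8 (median 0.12). IGFBP6 and IGFBP7 were at -2.20 and -1.26 and IGFBP5 at 0.84. Wnt and Notch genes gave 7 each way of 19 (36.8% each) with a median of 0.08 that changed sign when some libraries were left out. With the replicate block, and without YAP-HA replicate 1 or 2, 4 rose and 7 fell. Among the largest differences were TCF7, WNT5A and HES1 at -1.19, -1.09 and -1.06, and NOTCH2 at 0.66. Of 5 tested metallothioneins 1 rose (20%) and 2 fell (40%). The number that fell was 1 without any 1 of the libraries other than control replicate 1. The median of -0.06 changed sign with the scaling and when some libraries were left out, and MT1X was at -1.18.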

How the data were processed

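Per the labels, RNA of ARPE-19 cells (1 µg, RIN over 7) was made into stranded poly-A libraries with the TruSeq kit. The authors deposited gene-level TPM, made by alignment and RSEM, and the submitters' processing notes name STAR, RSEM and GRCh38. Which STAR version served these libraries is not given in the sources used here. The fit used limma 3.58.1 (R 4.3.3) on log2(TPM + 1), with trend on, in 9 libraries with 1 mean per group, after a filter on low values (3 or more gel libraries at TPM 1 or above), and Benjamini-Hochberg adjustment over all 14051 genes, two-sided. The paper provided with the series does not describe this experiment. The SE is from the fit. The fold changes of low genes are understated by the pseudocount of 1. Genes named are the 15 largest changes each way among genes called that carry a gene symbol and whose groups do not overlap. The 8 largest differences in mean TPM each way among genes called were taken as well. Up to 10 genes each way were off in one group (under 0.5 TPM) and on in the other (at least 2). The 4 largest of each gene list were added, and all YAP/TEAD targets and YAP, TAZ, TEAD and VGLL genes. Of all these the text gives the main ones. Other list members were chosen after their values were seen. The members and lists were chosen with earlier results of these data known. Lists are described by counts and medians beside those of all genes, with no test. Lengths, positions and gene classes came from GENCODE on GRCh38 and promoters from RefSeq. Same-numbered YAP-HA and control libraries deviated together with correlations of -0.098, 0.095 and -0.038, so the numbers were not taken as pairs. The fit was checked on simulated data. The number of columns with no sample was 0. Some genes of the lists are not reported here by name.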

Additional observations from a re-analysis of the deposited data

How the results depend on the processing

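The counts of genes called stayed within 1.5 times the main counts and no named gene that was called changed sign. Between 5857 and 7539 genes were called when each library was left out in turn, with 2837 to 4040 higher and 2936 to 3499 lower. The fit with the replicate block on the 6 gel libraries called 6244 genes, and the numbers do not pair the libraries. Each library centred on its median gave 3371 higher and 3841 lower. Without a filter 6736 genes were called of 29583, with TPM of at least 5 in 3 libraries 5863 of 10506, with a pseudocount of 0.1 7007 and with the 6 gel libraries only 6722. Chosen after seeing the data, the filter over 9 libraries called 7066 genes of 14606, and smoothing on transcript length called 7042, of which 5728 were among the 6995 main calls with a known length and had the same direction. Of 2870 values of 181 named genes besides YAP1, 2815 kept their direction and side of the threshold, 45 were no longer called, 4 were newly called and 6 changed sign, all in 3 genes not called in the main analysis. FOXF2 (0.00) became -0.038 with centring and ran from -0.071 (without YAP-HA replicate 1) to 0.044 with 1 library left out. WWTR1 (-0.07) became 0.021 without mitochondrial genes and ran from -0.18 to 0.077 (without control replicate 1). MT1M (0.19) ran from -0.086 (without YAP-HA replicate 1) to 0.41. The causes were not tested. CCN2 was at an adjusted p of 0.050 with centring, and GADD45A and MT2A lost their calls in 12 and 11 settings. Since TPM keep no depth, the counting error of low genes is unknown.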

Other observations

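A few other genes stood out, chosen after their values were seen. Summed over 6 genes of the chorionic gonadotropin beta family (CGB), which are near-identical and may share reads, levels were 5.35, 8.19 and 4.16 TPM in YAP-HA libraries, against 90.0, 93.8 and 90.2 TPM in control libraries, a 15.5-fold lower mean in YAP-HA cells. SERPINB2, an inhibitor of plasminogen activators, had 65.8, 63.4 and 66.0 TPM in YAP-HA libraries and 512, 454 and 532 TPM in control libraries (log2 difference -2.92 ± 0.08, adjusted p = 1.4e-09). FAP, a membrane serine protease, had 1.87, 1.63 and 1.29 TPM in YAP-HA libraries and 22.6, 21.5 and 20.2 TPM in control libraries. IL7R, a chain of the interleukin-7 receptor, moved the other way, with 77.3, 76.6 and 91.8 TPM in YAP-HA libraries and 31.9, 23.8 and 24.2 TPM in control libraries (1.59 ± 0.12, adjusted p = 3.1e-06). The groups did not overlap for any of these genes.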
